A study of Rattus norvegicus with 19 samples.

Results

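Expression in the paraventricular nucleus (PVN) of the hypothalamus was compared between the spontaneously hypertensive rat (SHR) and its normotensive control strain, the Wistar Kyoto rat (WKY). The PVN arrays were taken from the labels, which gave 5 arrays of PVN SHR and 5 of PVN WKY among the 19 arrays of the series. Both strains were untreated inbred males (WKY/NHsd and SHR/NHsd) labelled as 12-week animals, normotensive or hypertensive. The nuclei were dissected from slices of hypothalamus and pooled. How many nuclei went into each array is not settled by the sources used here, so that the p-values measure the spread between these arrays, which may in part be technical. The arrays of the supraoptic nucleus (SON), 5 from WKY and 4 from SHR, were used to set strain differences of the PVN beside those of the SON. They also entered the fits of all 4 groups.

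The PVN is where the hypothalamus joins hormone release to control of the sympathetic nerves. Its magnocellular neurones make vasopressin and oxytocin and secrete them from the posterior pituitary, its parvocellular neurones make releasing hormones such as corticotrophin-releasing hormone, and its preautonomic neurones project to brainstem and spinal cord and help to set arterial pressure. The SHR is an inbred line bred for high blood pressure and the WKY is the normotensive line kept for comparison, so a difference between them can come from any of the many loci at which inbred strains differ as well as from the pressure itself.

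Each value is the signal of a probe set, a group of short oligonucleotides that reports on 1 stretch of a transcript, and is given on the log2 scale after the arrays were brought to a common median. A difference is the SHR mean minus the WKY mean, so that 1.00 is a doubling of signal. Rose and fell describe this signal of a probe set. Whether the oligonucleotides match the transcripts of both strains equally was not tested. The tissue label was checked against markers of its cells. Vasopressin (Avp) had a mean log2 signal of 12.33 in WKY and 12.03 in SHR, oxytocin (Oxt) 12.16 and 11.91, thyrotrophin-releasing hormone (Trh) 10.21 and 9.81, corticotrophin-releasing hormone (Crh) 9.14 and 8.75, and Sim1, a transcription factor needed for PVN neurones to form, 7.13 and 6.19. Otp, another transcription factor of these neurones, lay below the filter on dim probe sets at 2.58 and 2.50. Neurones were not the only cells present. The astrocyte marker Gfap stood at 10.83 and 10.48, the myelin gene Mbp at 11.30 and 10.94 and the ependymal factor Foxj1 at 7.55 and 8.02. Of markers chosen for the neighbouring thalamus and suprachiasmatic nucleus, Tcf7l2 stood at 7.59 and 7.97 and Prkcd at 6.25 and 6.15. Vip and Prok2 lay below the filter. Over the SON arrays the mean of Tcf7l2 was 7.17 and that of Prkcd 6.89, so these markers do not settle whether neighbouring tissue was included. In such tissue pieces fewer cells of a type and less RNA per cell cannot be told apart.

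Among 31042 probe sets, 16104 were bright enough to test. SHR array 1 and SHR array 4 stood apart from the rest: their mean correlation with the other SHR arrays was 0.961 and 0.964, against 0.974 to 0.982 for each of the other 8 arrays within its strain, and they lay at opposite ends of the first principal component, which held 32.4% of the variance. The second component, with 23.5%, separated the strains.

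Most strain differences were small. At an adjusted p under 0.05 (limma, Benjamini-Hochberg over all 16104 probe sets) 380 probe sets were called, or 2.36%, of which 183 were higher in SHR (1.14%) and 197 lower (1.22%). At least 2-fold differences were found for 101 of them (0.627%), with 50 higher (0.31%) and 51 lower (0.317%). The other 279 called probe sets, 133 higher and 146 lower, differed by less than 2-fold, and the smallest called difference was 0.39 against a median standard error of 0.13 over all probe sets. Without SHR array 1 the count was 736, with 223 higher and 513 lower, while leaving out any other array gave 273 to 383. In 343 of the 380 the 5 SHR arrays did not overlap the 5 WKY arrays, as was so for 704 of all tested probe sets (4.37%). The 253 called probe sets with a single gene symbol stood for 237 of 9756 genes (2.43%).

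Several probe sets often read 1 gene, which gives a check within the same RNA. Of 94 called genes with more than 1 tested probe set, 12 had at least 2 called in the same direction, 8 of these had every tested probe set called, and in 82 only 1 was called. The 12 genes were P3h4, Cep295, Rtel1, Csnk2a1, Zfp317, Pxmp4 and Zbtb20, higher in SHR on the probe sets concerned, and Crot, Cisd2, Hecw2, Rab8b and RT1-CE5, lower.

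P3h4, a protein of the endoplasmic reticulum that takes part in collagen modification, rose by 0.88 (adjusted p = 0.00447), 0.91 (0.00137) and 0.92 (0.0119) on 3 probe sets, while another differed by 0.03. On the first of these the SHR arrays, from low to high, read 6.29, 6.34, 6.53, 6.88 and 7.19 and the WKY arrays 5.64, 5.67, 5.76, 5.86 and 5.91. The strains were apart on that probe set, and the SHR arrays were the more scattered. Cep295, a centriole protein, rose by 0.98 (adjusted p = 0.0101) and 1.01 (0.00541). Rtel1, a helicase that maintains telomeres, rose by 0.61 (0.00834) and 0.81 (0.0082), its SHR arrays reading 6.94, 7.02, 7.05, 7.15 and 7.32 and its WKY arrays 6.37, 6.37, 6.42, 6.44 and 6.81 on the first probe set. Zfp317, a zinc finger protein, had the tightest arrays of the group. Its SHR signals were 6.91, 6.94, 6.96, 7.02 and 7.03 and its WKY signals 6.25, 6.43, 6.45, 6.51 and 6.51, a rise of 0.54 (0.00457) beside one of 0.71 (0.00778) on the second probe set. Pxmp4, a membrane protein of peroxisomes, rose by 2.28 (1.32e-07) and 2.84 (8.15e-04). On the first Pxmp4 probe set the WKY mean of 4.52 lay below the filter, so that it was tested through SHR alone.

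Among the genes that fell, Crot, the peroxisomal enzyme that attaches carnitine to medium-chain acyl groups, read 6.79, 6.96, 7.12, 7.18 and 7.44 in SHR and 7.60, 7.65, 7.71, 7.78 and 7.86 in WKY. It fell by 0.63 (0.00963) on that probe set and by 0.56 (0.0229) on the other. Cisd2, an iron-sulphur protein of mitochondrial and reticulum membranes, fell by 0.52 (0.0157) and 0.91 (2.74e-04), with another probe set at 0.04. On the larger difference the SHR arrays read 5.40, 5.61, 5.66, 5.74 and 5.77, all below the lowest WKY array at 6.23. Hecw2, a ubiquitin ligase, fell by 0.49 (0.0314) and 0.75 (0.0104), and Rab8b, a GTPase of vesicle traffic, by 2.51 (1.98e-04) and 1.65 (4.44e-07). On the second Rab8b probe set the SHR mean of 5.19 lay below the filter, so that it was tested through WKY alone. The class I histocompatibility gene RT1-CE5 fell by 0.75 (0.028), 1.26 (2.80e-04) and 1.60 (2.93e-04). Since the RT1-CE genes are near-identical copies, their probe sets may share transcripts. The second RT1-CE5 probe set, with an SHR mean of 4.28, also passed the filter through WKY alone. Not every probe set of these genes that passed in this way is marked. The weaker calls of Crot, Hecw2, RT1-CE5 and Csnk2a1 were lost when any 1 of 5 to 7 arrays was left out, with adjusted p of at most 0.102. The weaker call of Cisd2 was lost without WKY array 4 (0.0518). By the t-test of the study's methods (unequal variances) every call of P3h4, Cep295, Rtel1, Csnk2a1, Crot, Hecw2 and RT1-CE5 was lost. Zfp317, Pxmp4, Zbtb20, Cisd2 and Rab8b each kept a call by that test.

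**Figure D1:**
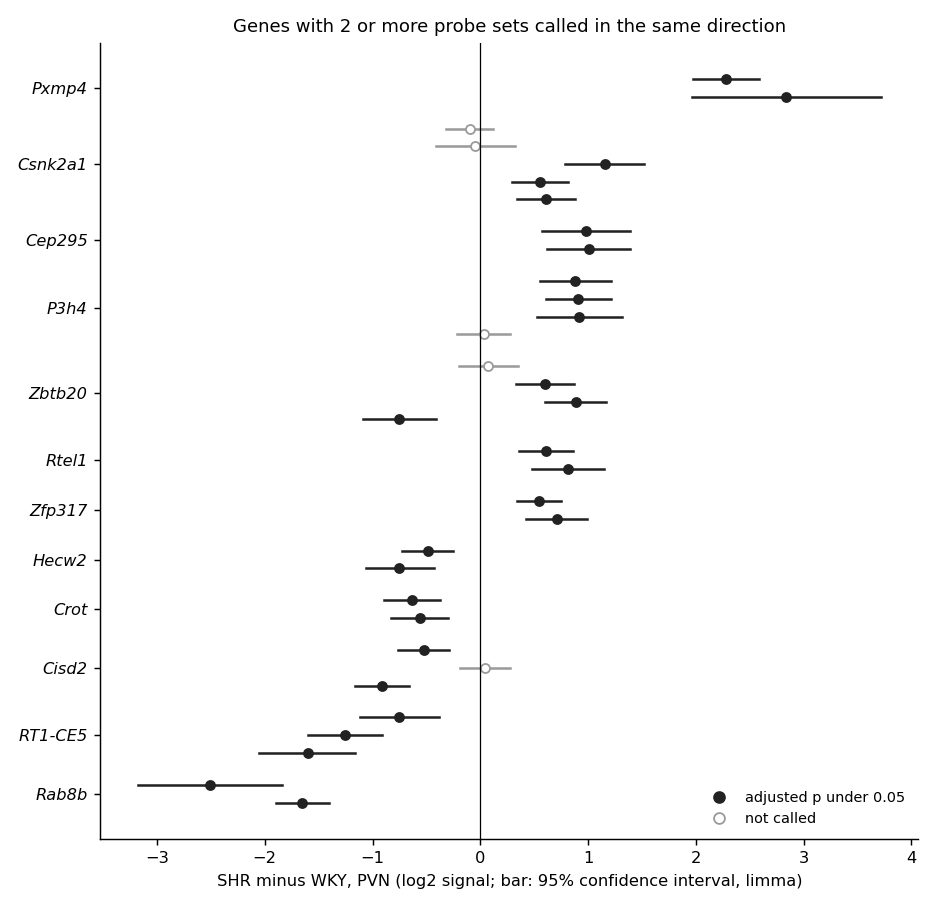
Strain difference in log2 signal (SHR minus WKY, with 95% confidence intervals) on every tested probe set of the 12 genes called in 1 direction on at least 2 probe sets. The 3 called probe sets of P3h4 sit between 0.88 and 0.92 while the remaining one is at 0.03, and Zbtb20 has called probe sets on both sides of 0.

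Agreement was not complete even in these genes. Csnk2a1, a catalytic subunit of casein kinase 2, rose by 1.16 (8.86e-04), 0.55 (0.021) and 0.61 (0.0143) on 3 probe sets but differed by -0.10 and -0.05 on its 2 brighter ones. On the first the SHR arrays read 6.77, 6.96, 7.01, 7.35 and 7.66 and the WKY arrays 5.57, 5.83, 6.17, 6.19 and 6.20. The Csnk2a1 probe sets at 0.55 and 0.61, with means of 5.36 and 5.31 over the PVN arrays, passed the filter through SHR alone. The transcription factor Zbtb20 was called in both directions, higher by 0.60 (0.0165) and 0.89 (0.00103) and lower by 0.75 (0.0166), with its brightest probe set at 0.07. The calls at 0.60 and -0.75 were lost without any of 2 and of 4 arrays (adjusted p at most 0.0542 and 0.0534). On the lower one the strains overlapped, with SHR between 4.78 and 5.56 and WKY between 5.42 and 6.06.

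Across the 2070 genes with at least 2 tested probe sets, the brightest probe set was paired with each other one, giving 2582 pairs. Their strain differences had the same sign in 1580 pairs (61.2%), with a correlation across pairs of 0.31 as a description, since pairs of 1 gene share arrays. The same sign was seen in 58.3% of pairs when the partner was among the dimmest, in 60.2% when it was intermediate and in 65.0% when it was among the brightest, the pairs being split into 3 equal groups. A test of the difference between the probe sets within each array (limma, adjusted over the 2582 pairs) found 71 pairs, from 65 genes, whose strain differences were unlike (2.75%). In 45 of these the signs were opposite, in 52 the dimmer probe set had the larger difference, and in 19 neither probe set was called alone. The count of 52 is in part set by the filter, which let in a probe set of low mean only if 1 strain was bright. Dimmer partners of this kind included those of Ptprj (mean log2 signal 4.18), Slc25a27 (3.78) and Agtrap (4.59). The dimmer probe sets of Stat3, Klf6 and Icam2, described below, also passed the filter through WKY alone. Of the 104 pairs that held a called probe set, 72 had the same sign and 52 were unlike. In the 12 pairs with both called the sign was the same. Since every pair holds the brightest probe set, the opposite calls of Zbtb20 are not among them. Leaving out 1 array gave 39 to 66 unlike pairs, the lowest without WKY array 4 or 5.

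Some of these genes are well known in the brain. Ythdf2, a reader of methylated adenosine in messenger RNA, differed by -0.03 on its brightest probe set and fell by 1.33 on another, where SHR read 6.12, 6.36, 6.43, 6.50 and 6.59 and WKY 7.57, 7.62, 7.70, 7.74 and 8.02 (pair adjusted p = 2.05e-05). Snx27, a sorting nexin that returns receptors from endosomes to the cell surface, stood at -0.25 on the brightest probe set and rose by 1.13 on another, where SHR read 7.03, 7.14, 7.48, 7.58 and 7.68 and WKY 5.90, 6.13, 6.32, 6.45 and 6.45 (pair adjusted p = 1.24e-04). Znrf1, a ubiquitin ligase of neurones, rose by 1.25 on its brightest probe set (8.05, 8.14, 8.15, 8.22 and 8.52 in SHR against 6.78, 6.90, 6.95, 7.02 and 7.19 in WKY). Its 2 other probe sets stood at -0.68 and 0.27, and both pairs differed (0.0377 and 0.00286). On each of these probe sets the strains did not overlap, while the partner probe set, read from the same RNA, differed less or the other way.

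Stat3, a transcription factor activated by cytokines and leptin, was at -0.12 on the brightest probe set and fell by 1.38 on the dimmer, where SHR read 4.99, 5.06, 5.30, 5.32 and 5.85 and WKY 6.16, 6.61, 6.68, 6.78 and 7.19 (pair adjusted p = 0.00235). Klf6, a zinc finger transcription factor, was at -0.04 and fell by 1.14 on its dimmer probe set (pair adjusted p = 2.27e-04), with SHR between 4.77 and 5.10 and WKY between 5.82 and 6.27. Snx10, a sorting nexin, was at -0.12 and fell by 1.16 (pair adjusted p = 0.0377), reading 6.73, 6.89, 7.01, 7.06 and 7.19 in SHR and 8.0, 8.08, 8.17, 8.21 and 8.22 in WKY. Icam2, an adhesion molecule of endothelium, was at 0.34 and fell by 0.98 on its dimmer probe set (pair adjusted p = 3.59e-04). Thy1, a surface glycoprotein of neurones, differed in size and not in direction: it stood at -1.33 on its brightest probe set, with SHR reading 7.78, 7.97, 7.97, 7.99 and 8.04 and WKY 9.09, 9.11, 9.18, 9.50 and 9.50, and at -0.40 on the other (pair adjusted p = 0.0015).

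Smaller unlike pairs included channel and signalling genes. Kcnd3, a subunit of the A-type potassium channel that delays firing, was at -0.28 on its brightest probe set and rose by 0.68 (adjusted p = 0.00265) on the other, where SHR read 7.17, 7.38, 7.39, 7.41 and 7.48 and WKY 6.51, 6.54, 6.64, 6.74 and 6.98. Gabarapl1, which takes part in autophagy, was at 0.35 and fell by 0.56 on its dimmer probe set (adjusted p = 0.0298), the pair differing by 0.91 (3.44e-04). Camk2g, a calcium and calmodulin dependent kinase, stood at -0.79 and 0.06 (pair adjusted p = 0.00402). Ina, a neurofilament protein, stood at -0.40 and 0.37 with neither called, yet the pair differed by 0.77 in size (pair adjusted p = 0.0015). The largest unlike pair was that of the receptor phosphatase Ptprj, at -0.06 and -4.37 (1.20e-09). On the dimmer Ptprj probe set 4 of the 5 SHR arrays lay at the floor, so that its difference is set by the floor. The calls of Gabarapl1 and Camk2g as single probe sets were lost when any 1 of 6 arrays was left out (adjusted p of at most 0.0894 and 0.0877).

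**Figure D2:**
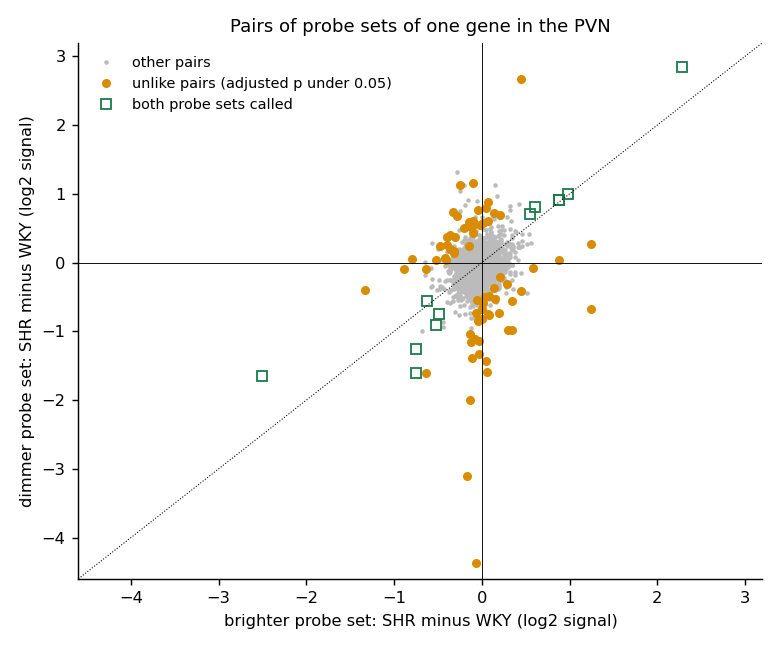
Strain difference (log2, SHR minus WKY) of the dimmer probe set of a pair (vertical axis) against that of the brighter one of the same gene (horizontal axis), for 2582 pairs. The 71 unlike pairs (filled circles) lie off the dotted line of equal differences, in 52 of them with the larger difference on the dimmer probe set, and the 12 pairs with both probe sets called (squares) lie on the same side of 0 on both axes.

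A second pattern was a small shift that depended on signal. When the tested probe sets were split into 10 equal groups by mean signal, the median difference lay between 0 and -0.04 in the lower 9 groups and was -0.13 in the brightest, where 1399 of 1611 probe sets (86.8%) were below 0. In the brightest group 1 called probe set was higher and 15 were lower. The shift was not the same in the SHR arrays: relative to the WKY mean, the brightest group had a median of 0.17 in SHR array 1, -0.08 in array 2, -0.12 in array 3, -0.33 in array 4 and -0.27 in array 5, against -0.06 to 0.12 in the WKY arrays. After quantile normalisation, which gives every array the same distribution, the median of the brightest group was 0.00.

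**Figure D3:**
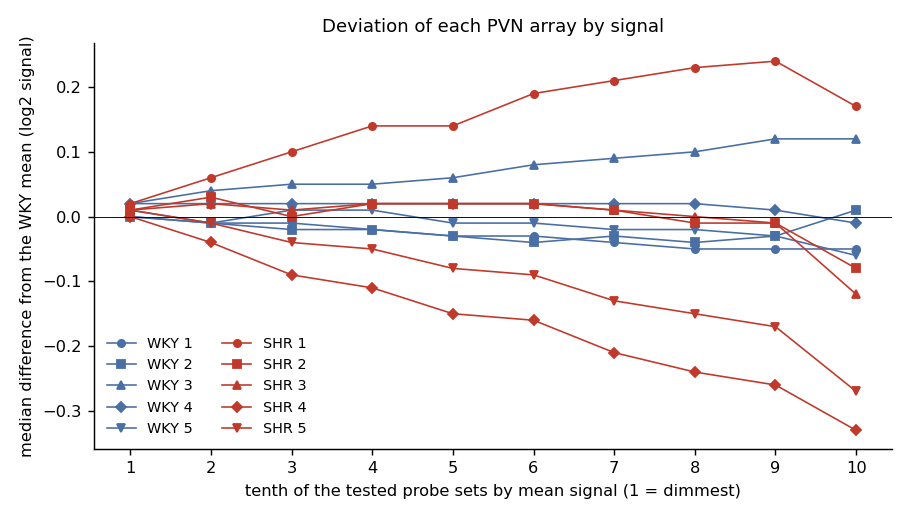
Median difference of each PVN array from the WKY mean (log2 signal, vertical axis) in each of 10 equal groups of the tested probe sets by mean signal (horizontal axis, 1 the dimmest), with 1 line for each of the 5 SHR and 5 WKY arrays. In the brightest group the SHR arrays spread from 0.17 for array 1 to -0.33 for array 4, wider than the WKY arrays at -0.06 to 0.12.

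Lists of abundant transcripts carried the same shift. In the gene lists each gene was read by its brightest probe set, and members called on another probe set are named apart. Over 9761 genes read in this way, 87 were called higher (0.891%) and 78 lower (0.799%), the median difference was -0.03 and 41.6% were above 0. In 22 of 50 gene lists the median was -0.10 or below, and this was so for 6 after quantile normalisation. The array means were not apart between the strains for 49 of the 50 lists, and SHR array 1 was the highest SHR array in 46. Nuclear-encoded subunits of the respiratory chain, the mitochondrial complexes that pass electrons to oxygen, are the clearest case: 68 of their 73 probe sets lay in the brightest group, 5 were above 0, and their median was -0.17, but -0.02 after quantile normalisation. Their array means were 10.22, 10.03, 9.89, 9.72 and 9.70 in SHR arrays 1 to 5 and 10.02, 10.12, 10.21, 10.05 and 10.01 in WKY arrays 1 to 5. One subunit, Ndufv3 of complex I, fell by 0.49 (0.0225, and at most 0.0673 with 1 array left out, the call being lost without any of 6), while its other probe set was at 0.19. Atp5if1, the inhibitor of the ATP synthase, stood at -0.27 on its brightest probe set and fell by 0.51 (0.0178) on another, lost without either of 2 arrays. Ribosomal proteins (43 tested, median -0.17, 0.02 after quantile normalisation) and glycolytic enzymes (19 tested, median -0.18, -0.02 after quantile normalisation) had no called member by limma or by the methods' t-test, with 15 and 8 members lower at an unadjusted p under 0.05.

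**Figure D4:**
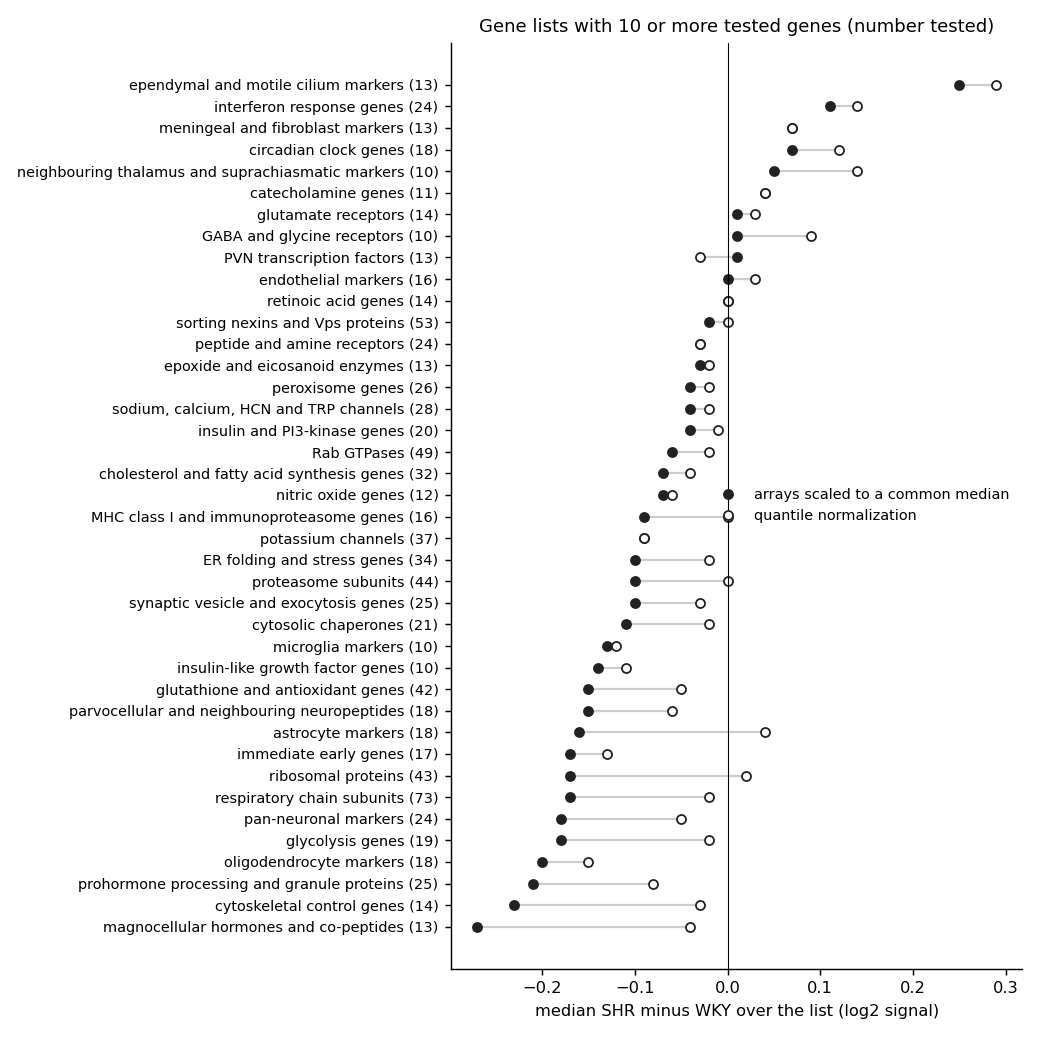
Median strain difference (log2, SHR minus WKY) over the members of each of the 40 gene lists with at least 10 tested genes, ordered by that median, after scaling to a common median (filled) and after quantile normalisation (open). Magnocellular hormones, ribosomal proteins, glycolysis and the respiratory chain move towards 0 after quantile normalisation, while the ependymal list stays at 0.25 and 0.29.

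Among the hormones of the nucleus few were called. Of 13 magnocellular hormones and co-released peptides, 2 were above 0 and the median was -0.27, or -0.04 after quantile normalisation. The called member was Cck, cholecystokinin, which fell by 0.55 (SE 0.13, adjusted p = 0.0421). Its SHR arrays read 8.25, 8.47, 8.62, 8.67 and 8.87 and its WKY arrays 8.85, 9.04, 9.12, 9.17 and 9.44, so that the highest SHR array overlapped the lowest WKY array, and the adjusted p was 0.191 after quantile normalisation and up to 0.121 with 1 array left out (lost without any of 8 arrays). Vasopressin stood at -0.29 (adjusted p = 0.268) and oxytocin at -0.25 (0.439), and both changed sign after quantile normalisation, to 0.06 and 0.03. Pdyn, which encodes the dynorphins released with vasopressin, stood at -0.52 (0.0636). Corticotrophin-releasing hormone stood at -0.40 (0.217). The 2 tested members of its family had a median of -0.33, or -0.31 after quantile normalisation, and the urocortin gene Ucn lay below the filter.

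Among 18 parvocellular and neighbouring neuropeptides the called one was Grp, gastrin-releasing peptide. Its SHR arrays read 5.69, 6.28, 6.28, 6.63 and 6.82 and its WKY arrays 7.06, 7.26, 7.38, 7.48 and 7.56. All SHR arrays were below all WKY arrays, a fall of 1.01 (SE 0.18, adjusted p = 0.00383), and in the SON the difference was -0.05. The call of Grp was lost with no filter and by the methods' t-test. Thyrotrophin-releasing hormone stood at -0.40 (0.111), somatostatin (Sst) at -0.34 (0.116) and growth hormone-releasing hormone (Ghrh) at -0.50 (0.0697), the last with strains apart.

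Sim1 was the called member of 13 PVN transcription factors, whose median was 0.01. It read 6.08, 6.12, 6.16, 6.24 and 6.34 in SHR and 7.0, 7.13, 7.14, 7.14 and 7.22 in WKY, a gap wider than either strain's range. It fell by 0.94 (SE 0.10, adjusted p = 2.74e-05) and stood at -0.97 in the SON.

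Nppa, which encodes atrial natriuretic peptide, a hormone that promotes sodium loss and acts in the brain against vasopressin release, was the called one of 4 natriuretic peptide genes. Its SHR arrays read 5.73, 5.96, 6.26, 6.33 and 6.51 and its WKY arrays 5.03, 5.17, 5.38, 5.38 and 5.54. They were apart, and Nppa rose by 0.86 (SE 0.15, adjusted p = 0.00342). Its WKY mean of 5.3 lay below the filter, so that it was tested through SHR alone. The call was lost with no filter, by the methods' t-test and in the fit of all 4 groups. The clearance receptor Npr3 was at the floor on all arrays. None of 7 renin-angiotensin genes was called on its brightest probe set by limma or by the methods' t-test, though 1 was higher and 1 lower when p was left unadjusted (under 0.05). Agtrap, which binds the angiotensin receptor and promotes its internalisation, was at 0.44 (0.131) there and rose by 2.68 (SE 0.21, adjusted p = 1.24e-06) on its dimmer probe set, a call kept under all 19 alternatives that tested it. That probe set read 5.46, 5.80, 6.07, 6.09 and 6.23 in SHR and 2.34, 3.36, 3.45, 3.47 and 3.63 in WKY, so that it passed the filter through SHR alone. Ace, which makes angiotensin II, stood at -0.64 (SE 0.17, adjusted p = 0.0674), its receptor gene Agtr1a at 0.33 (0.469) and the precursor Agt at -0.14, or 0.13 after quantile normalisation.

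Genes of prohormone processing and the secretory granule had 2 called of 25, both lower, with a median of -0.21, or -0.08 after quantile normalisation. Resp18, a protein of the endocrine secretory pathway, read 11.39 to 11.63 in SHR and 11.94 to 11.99 in WKY, and fell by 0.45 (SE 0.09, adjusted p = 0.0143). After quantile normalisation it stood at -0.16 (0.251). Chgb, which encodes the granule protein chromogranin B, fell by 0.49 (SE 0.11, 0.0208), a call lost without any of 6 arrays (adjusted p at most 0.0618). The granule membrane protein Ptprn stood at -0.41 (0.0842) and the prohormone convertase Furin at 0.38 (0.144).

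**Figure D5:**
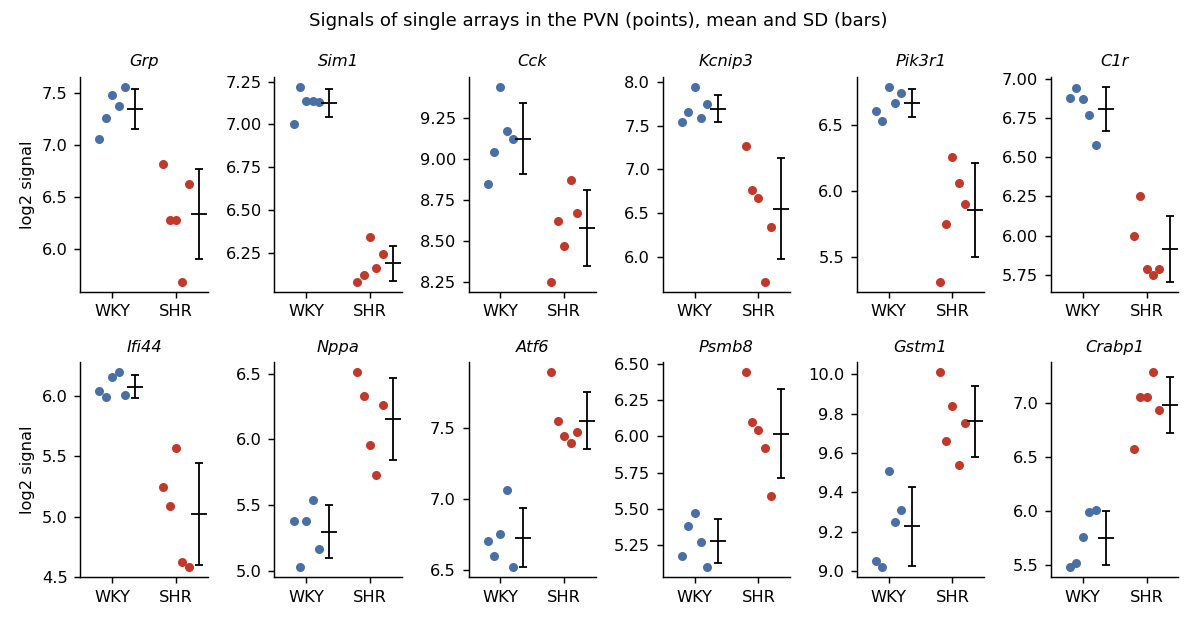
Log2 signal on each PVN array (points, 5 WKY and 5 SHR) with the strain mean and SD beside them, for 12 genes named in the text, each on its own vertical scale. In Sim1, Grp, Kcnip3, Pik3r1, C1r and Ifi44 every SHR array is below every WKY array, in Nppa, Atf6, Psmb8, Gstm1 and Crabp1 every SHR array is above, and in Cck the strains overlap.

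Of the genes that set excitability, 37 potassium channel genes had 2 calls on the brightest probe set, both lower, beside the rise of Kcnd3 on its dimmer one, and a median of -0.09 under either normalisation. Kcnip3, a calcium-binding partner of A-type channels that also represses transcription of the dynorphin gene, fell by 1.14 (SE 0.21, adjusted p = 0.00595). It read 5.72, 6.34, 6.67, 6.77 and 7.27 in SHR and 7.54, 7.59, 7.65, 7.74 and 7.94 in WKY, with the wider scatter in SHR. Kcnt1, a sodium-activated potassium channel, fell by 0.65 (SE 0.13, 0.0128) on its brightest probe set, where SHR read 5.40, 5.61, 5.81, 5.97 and 6.04 and WKY 6.21, 6.32, 6.46, 6.48 and 6.59, while its other probe sets stood at 0.01 and -0.17. The calls of Kcnip3 and Kcnt1 were lost with no filter and by the methods' t-test. On the brightest probe set no sodium, calcium, HCN or TRP channel of 28 was called, with 2 lower at an unadjusted p under 0.05, nor was any of 14 glutamate receptors, with 0, or of 10 GABA and glycine receptors, with 3 lower. The methods' t-test called none of these either. Glrb, the beta subunit of the glycine receptor, stood at -0.40 (0.253) on its brightest probe set and fell by 0.57 (0.0157) on the other, where SHR read 6.13, 6.26, 6.35, 6.38 and 6.58 and WKY 6.62, 6.86, 6.96, 6.97 and 7.11. Their medians were -0.04, 0.01 and 0.01. Of 25 synaptic vesicle genes limma and the methods' t-test called 0, with 5 lower at an unadjusted p under 0.05 and a median of -0.10. Of 49 Rab GTPases 1 fell, Rab8b, and the median was -0.06.

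Single members of wider signalling and metabolic lists also differed. Pik3r1, the regulatory subunit of phosphoinositide 3-kinase, was the called one of 20 insulin and PI3-kinase genes. It read 5.31, 5.75, 5.90, 6.06 and 6.26 in SHR and 6.53, 6.61, 6.67, 6.74 and 6.79 in WKY and fell by 0.81 (SE 0.15, adjusted p = 0.00571). Its call was lost with no filter and by the methods' t-test. Atf6, a sensor of misfolded protein in the endoplasmic reticulum, was the called one of 34 folding and stress genes, whose median was -0.10. Its SHR arrays read 7.39, 7.44, 7.47, 7.55 and 7.89 and its WKY arrays 6.52, 6.60, 6.70, 6.75 and 7.06, a rise of 0.82 (SE 0.13, 0.00141), while 9 of the 34 members were above 0. Ssr1, of the translocon-associated complex, stood at -0.22 and fell by 0.51 (0.0324) on a dimmer probe set, lost without any of 6 arrays (at most 0.104). Of 26 peroxisome genes Pxmp4 rose and Crot fell, and the median was -0.04.

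Among 13 epoxide and eicosanoid enzymes, Ephx2, the soluble epoxide hydrolase, read 6.48 to 7.26 in SHR, while 4 WKY arrays read 4.24 to 4.71 and the other lay at the floor. The size of its rise rests on that floor and on dim WKY values, being 2.89 here (3.72e-04) and 1.96 to 3.08 under the alternatives, and its call was lost with the t-test. Ptgr1, a reductase that inactivates prostaglandins and leukotriene B, fell by 1.16 (SE 0.23, adjusted p = 0.0103), reading 3.33, 4.33, 4.54, 4.74 and 4.96 in SHR and 5.32, 5.41, 5.49, 5.69 and 5.80 in WKY. Its SHR mean of 4.38 lay below the filter. The call was lost with no filter, by the t-test and in the fit of all 4 groups. Gstm1, a glutathione transferase, was the called one of 42 glutathione and antioxidant genes. Its SHR arrays read 9.54, 9.66, 9.75, 9.84 and 10.01 and its WKY arrays 9.02, 9.05, 9.25, 9.31 and 9.51. It rose by 0.53 (SE 0.12, 0.0315), a call lost without any of 7 arrays (adjusted p at most 0.103), whereas its relatives Gstm4 and Gstm7 stood at -0.46 (0.0697) and -0.44 (0.0761). Transferases of this family are close copies and their probe sets may share transcripts.

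Immune genes differed in both directions. Of 16 class I histocompatibility and immunoproteasome genes, RT1-CE16 rose by 2.79 and Psmb8 by 0.74 (SE 0.14, adjusted p = 0.00815), while RT1-CE5 and RT1-CE12 fell, the latter by 0.56 (0.0195, and at most 0.0669 with 1 array left out). Psmb8, a catalytic subunit of the immunoproteasome, which cuts peptides for class I display, read 5.59, 5.92, 6.04, 6.10 and 6.44 in SHR and 5.10, 5.18, 5.27, 5.38 and 5.47 in WKY. It passed the filter through SHR alone, and its call was lost with no filter and by the methods' t-test. Its partner Psmb9 stood at -0.31 (0.294). All 4 class II genes tested were below 0. RT1-DMb, which helps to load peptide on class II molecules, read 6.74, 6.80, 6.81, 6.85 and 7.01 in SHR and 7.31, 7.32, 7.40, 7.43 and 7.45 in WKY and fell by 0.54 (SE 0.10, 0.00509). RT1-DMa, the other chain of that molecule, stood at -0.42 (0.0544), also with strains apart.

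Interferon response genes lay mostly above 0. Of 24, 19 were above 0, against 41.6% of all genes, with a median of 0.11, or 0.14 after quantile normalisation, and 4 were higher at an unadjusted p under 0.05. The array means overlapped, at 6.55, 6.52, 6.54, 6.28 and 6.31 in SHR arrays 1 to 5 and 6.31 to 6.50 in WKY. The called member, however, was Ifi44, which fell by 1.06 (SE 0.16, 0.00137). It read 4.58, 4.62, 5.09, 5.25 and 5.57 in SHR and 5.99, 6.01, 6.04, 6.16 and 6.20 in WKY. Its SHR mean lay below the filter, so that Ifi44 was tested through WKY alone, and its call was lost by the methods' t-test. The members above 0 were uncalled, among them Rtp4 at 0.42 (0.288), Gbp2 at 0.35 (0.171) and Ifitm3 at 0.28 (0.305).

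The complement proteases that start the classical pathway fell together. C1r read 5.75, 5.79, 5.79, 6.0 and 6.25 in SHR and 6.58, 6.77, 6.87, 6.88 and 6.94 in WKY, a fall of 0.89 (SE 0.12, adjusted p = 3.81e-04). Its neighbour C1s read 5.47, 5.86, 5.99, 6.38 and 6.44 against 6.51, 6.74, 6.84, 6.85 and 6.92 and fell by 0.74 (SE 0.16, 0.0208), a call lost without any of 5 arrays (adjusted p at most 0.0599). In the SON both stood near 0, at -0.07 and -0.05. Microglial markers, the resident immune cells, had 0 called of 10 by limma and by the methods' t-test, 0 at an unadjusted p under 0.05 and a median of -0.13.

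Markers of ependymal cells, whose motile cilia line the third ventricle beside the PVN, had the largest median above 0 of the 50 lists. Of 13 tested, 12 were above 0, the median was 0.25 (0.29 after quantile normalisation) and 3 were called, all higher. The array means were 7.63, 7.49, 7.41, 7.35 and 7.46 in SHR arrays 1 to 5 and 7.10, 6.90, 7.21, 7.11 and 7.05 in WKY arrays 1 to 5, and this was the list of the 50 whose array means did not overlap. Without Vwa3a, which passed the filter through SHR alone, the other 12 had a median of 0.24 and overlapped, with SHR array 4 at 7.41 and WKY array 3 at 7.48. Vwa3a rose by 2.17 (SE 0.17, adjusted p = 8.61e-07), reading 5.66, 6.05, 6.27, 6.62 and 6.63 in SHR and 3.94 to 4.32 in WKY. Tekt1, a structural protein of ciliary microtubules, rose by 0.47 (SE 0.12, 0.0442), with SHR at 8.0, 8.15, 8.15, 8.16 and 8.42 and WKY at 7.44, 7.65, 7.71, 7.87 and 7.87. The ciliary kinase Ak7 rose by 0.48 (SE 0.12, 0.0457). Both calls were lost when 1 array was left out, that of Tekt1 without any of 9 arrays (adjusted p at most 0.137) and that of Ak7 without any of 8 (at most 0.12). Foxj1, the factor that switches on the motile cilium programme, stood at 0.47 (0.0736) with the strains overlapping, and Cfap126, Dnai1, Lrrc23 and Armc3 stood between 0.22 and 0.28. Dnaaf3, an assembly factor for ciliary dynein that was not on the list, rose by 0.50 (SE 0.12, 0.0289), lost without any of 7 arrays (at most 0.096). How much ventricular wall each piece of tissue held was not measured, and its part in these values was not tested.

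Of 14 retinoic acid genes 2 were called, both higher, with a median of 0.00. Crabp1, which binds retinoic acid in the cytoplasm, read 6.57, 6.93, 7.05, 7.05 and 7.28 in SHR and 5.48, 5.52, 5.76, 5.99 and 6.01 in WKY, a rise of 1.22 (SE 0.15, adjusted p = 1.18e-04). Aldh1a1, which makes retinoic acid from retinal, read 5.88, 6.17, 6.20, 6.28 and 6.96 against 4.95, 5.34, 5.44, 5.60 and 5.75 and rose by 0.88 (SE 0.18, 0.0155), while Aldh1a2 stood at 0.42 (0.204). The call of Aldh1a1 was lost with no filter and by the methods' t-test.

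Other cell types and state markers had few calls. Of 13 meningeal and fibroblast markers 1 was called, Fn1, fibronectin, which fell by 0.47 (0.0354; at most 0.107 with 1 array left out, lost without any of 8), and Dcn, Lum and Col1a2 lay below the filter. Pan-neuronal markers had 1 called of 24, Thy1, with a median of -0.18, or -0.05 after quantile normalisation, and Uchl1 stood at -0.43 (0.0636). Astrocyte markers (18 tested), oligodendrocyte markers (18) and endothelial markers (16) had no member called on its brightest probe set by limma or by the methods' t-test, with 4, 2 and 1 at an unadjusted p under 0.05, and medians of -0.16, -0.20 and 0.00. After quantile normalisation 1 oligodendrocyte marker was called. Mobp, a protein of compact myelin, stood at -0.63 (0.119) and -0.10 on 2 probe sets and fell by 1.61 (8.12e-06) on another, under all 20 alternatives. There SHR read 5.81, 5.99, 6.03, 6.14 and 6.77 and WKY 7.60, 7.69, 7.80, 7.81 and 7.89, and the strains were far apart. The choroid plexus genes Kl and Kcnj13 lay below the filter. Of 18 circadian clock genes 13 were above 0 and the median was 0.07, with limma and the methods' t-test calling 0 and 3 at an unadjusted p under 0.05. Per2 stood at 0.34 (0.165) and Per3 at 0.52 (0.211). Of 17 immediate early genes, which mark recent neuronal activity, 3 were above 0 and the median was -0.17. Limma and the t-test again called 0 on the brightest probe sets, Klf6 being the one called on another, with 3 lower at an unadjusted p under 0.05, and Fos stood at -0.66 (0.171).

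Several called differences of 2-fold or more belonged to no list, and those given here were not the largest of them. Dlgap4, a scaffold of the postsynaptic density, rose by 1.64 (adjusted p = 8.23e-07), with SHR at 7.40, 7.67, 7.73, 7.83 and 8.08 and WKY at 5.97, 6.06, 6.07, 6.14 and 6.26. Actr8, a subunit of the INO80 chromatin remodeller, rose by 1.22 (SE 0.10, 2.57e-06), and its SHR arrays were almost equal at 7.79, 7.79, 7.84, 7.85 and 7.86 against 6.35, 6.57, 6.64, 6.71 and 6.76 in WKY. Prelp, a proteoglycan of the matrix, rose by 1.30 (3.87e-05), Chi3l1, a chitinase-like protein of reactive astrocytes, by 1.29 (2.39e-04) and Atic, an enzyme of purine synthesis, by 1.17 (0.00126). Tom1l3 fell by 1.32 (9.75e-07), Ptpn22, a phosphatase of lymphocyte signalling, by 1.34 (9.25e-06) and Rragd, a GTPase by which amino acids activate mTORC1, by 1.25 (4.73e-04). Among the abundant genes, Cst3, which encodes cystatin C, fell by 0.51 (0.0123), but stood at -0.17 (0.163) after quantile normalisation.

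Some called genes were neighbours. In the order of genes of the GRCr8 assembly, used here for order alone, the next tested gene was also called for 16 of 235 called genes (6.81%), and for 2.33% of uncalled genes. The members of a pair moved in the same direction in 6 cases: Dnaaf3 and Tnnt1 (0.50 and 1.94), Prelp and Chi3l1, Frmpd2 and Zfp488 (0.95 and 0.82), Setd1b and Rhof (-1.13 and -0.55), Bdh2 and Cisd2 (-1.09 and -0.91), and C1r and C1s. They moved in opposite directions in 10, among them Bcl2l15 and Ptpn22 (1.15 and -1.34), Ifi44 and Gipc2 (-1.06 and 0.44), and Cck and Sec22c. With 1 array left out Zfp488 lost its call without any of 5 arrays (adjusted p at most 0.0698), Rhof without any of 4 (0.058) and Gipc2 without any of 7 (0.0915). Pairing by order was a description and was not tested.

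The SON served as a second nucleus of the same strains. Whether its arrays came from the same rats as the PVN arrays is not stated in the sources used here. Agreement between the nuclei may therefore not be independent, and the fit of all 4 groups took every array as independent. Of the 101 probe sets called at 2-fold or more in the PVN, 93 had the same sign in the SON and 79 were below an adjusted p of 0.05 there. Of the 279 smaller calls, 254 had the same sign. Over all 16104 tested probe sets 63.1% had the same sign and 667 were below that threshold in the SON (4.14%). The difference between the nuclei in the strain effect itself, tested as an interaction in a fit of all 4 groups, was called for 14 of 16104 probe sets (0.0869%), 7 of them among the 101. These 7 included Vwa3a, which stood at 2.17 in the PVN and -0.16 in the SON (interaction adjusted p = 4.92e-05), and Ptpn22, at -1.34 and -0.29 (0.0251). Each of the 7 passed the filter through 1 PVN strain alone, which favours a difference in the PVN. For Grp, C1r and C1s, which stood near 0 in the SON, the interaction was not called (adjusted p = 0.434, 0.318 and 0.572).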

How the data were processed

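The authors hybridised biotin-labelled cRNA, made with 1 round of linear amplification from pooled nuclei, to Affymetrix rat genome arrays and deposited 1 intensity per probe set, the linear signal of Affymetrix MAS5 (version not given in the sources used here). No probe sequence, background value or detection call was used. Deposited medians were 35.9 to 46.5 on the 10 PVN arrays, whose number limits the precision. No pair of arrays held identical values.

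The 57 control probe sets were left out. Arrays were scaled to a common median of 41.3, values under the 10th percentile (3.77) were raised to it, and log2 was taken. A probe set was tested where the mean of at least 1 strain reached log2 5.33, the median of all probe sets. It could thus pass through 1 strain alone, as several called probe sets did. SHR was compared with WKY by limma 3.58.1 in R 4.3.3 (2-sided, moderated, no covariate), with Benjamini-Hochberg adjustment and a threshold of 0.05. Probe sets of 1 gene were compared by limma on their difference within each array, and PVN with SON by the interaction in a fit of all 4 groups. Python 3.11.15 (pandas 2.3.3, scipy 1.17.1) and matplotlib 3.10.9 were used for summaries and plots. The steps were tested on simulated data.

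Symbols came from the platform annotation, updated through Entrez numbers for 20758 of 20826 probe sets with a single symbol. Another 436 had several symbols and 9780 had none, and from these no gene was named. A gene in a list was read by its brightest probe set, and calls on its other probe sets and the ependymal list without Vwa3a were added after seeing the data. Some called genes with a single symbol were named that were not those with the largest differences. The other genes named were the called members of 50 lists, the members of most interest for the nucleus, and genes whose probe sets agreed or were unlike. These lists and members were chosen with earlier results of these data known, and no list was tested as a set. Alternatives were quantile normalisation, values as deposited, no filter or one at the 75th percentile, log2(value + 16), an intensity trend, array weights, a replicate block, the methods' t-test (unequal variances, same adjustment), the omission of each array, and all 4 groups in 1 fit.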

Additional observations from a re-analysis of the deposited data

Results flagged for a closer look

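Within each strain the 5 arrays of every called probe set of a named gene were searched for 1 array whose gap to the nearest other exceeded 0.71 of the range. This was so in 18 of 232 groups, and chance flags about 5% of groups. Among SHR arrays, array 1 was high for Atic (log2 signal 8.24, others 7.59 to 7.65) and for 1 probe set of Pxmp4 (7.15, others 6.69 to 6.74), and array 2 was high for the floor-bound probe sets of Ptprj (2.30, others 1.91) and Slc25a27 (3.32, others 1.91 to 2.08). RT1-CE5 was low in array 5 on 1 probe set (4.70, others 5.43 to 5.68) and in array 4 on another (3.57, others 4.39 to 4.56), and Thy1 was low in array 5 (7.78, others 7.97 to 8.04).

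Among WKY arrays, array 1 was high for Myh1 (9.72, others 9.46 to 9.53) and Rtel1 (6.81, others 6.37 to 6.44) and low for S100pbp (7.47, others 7.85 to 7.89). Array 2 was low for Dnaaf3 (6.28, others 6.46 to 6.51) and Frmpd2 (5.81, others 6.37 to 6.49). Array 3 was low for Ephx2 (1.91, the floor, others 4.24 to 4.71) and for Zbtb20 on 2 probe sets (7.38, others 7.70 to 7.80, and 6.31, others 6.73 to 6.90), and high for Polr3k (9.74, others 9.44 to 9.51). Array 4 was low for Agtrap (2.34, others 3.36 to 3.63) and high for Bcl2l15 (5.28, others 5.08 to 5.10).

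The same search over the mean log2 signal of each list gave 9 of 98 groups, 6 of them from WKY array 3. That array was high for renin-angiotensin genes (8.01, others 7.63 to 7.73), nitric oxide genes (7.49, others 7.25 to 7.31), insulin and PI3-kinase genes (7.66, others 7.55 to 7.58), glutathione and antioxidant genes (8.55, others 8.34 to 8.39), interferon response genes (6.50, others 6.31 to 6.36) and markers of the neighbouring thalamus and suprachiasmatic nucleus (7.27, others 6.98 to 7.06). SHR array 1 was high for renin-angiotensin genes (8.0, others 7.62 to 7.68), SHR array 4 low for insulin-like growth factor genes (6.30, others 6.92 to 7.08) and WKY array 5 low for class II genes (6.16, others 6.41 to 6.48).

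The strain difference itself differed between PVN and SON for 7 of the probe sets called at 2-fold or more in the PVN, by the interaction (SON minus PVN). Vwa3a, a ciliary gene, had an interaction of -2.34 (adjusted p = 4.92e-05), from 2.17 in the PVN to -0.16 in the SON. Bcl2l15 went from 1.15 to -0.42 (interaction -1.57, 0.00204) and its neighbour Ptpn22 from -1.34 to -0.29 (1.05, 0.0251). Bdh2, an enzyme of ketone body metabolism, went from -1.09 to 0.38 (1.47, 0.019), C3h20orf96 from 2.52 to -0.09 (-2.61, 0.0458) and a probe set without a symbol from 1.38 to -0.14 (-1.52, 0.019). RT1-CE5 was the one with the larger difference in the SON, at -1.26 and -2.82 (-1.57, 0.0463).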

How the results depend on the processing

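The count of 101 probe sets at 2-fold or more was 37 with the stricter filter, 56 with log2(value + 16) and 54 by the methods' t-test, and 92 to 108 with 1 array left out. The count of any size (380) was 608 on values as deposited, 241 without a filter, 197 with the stricter filter, 900 with array weights (0.258 for SHR array 1 and 0.371 for SHR array 4) and 119 by the t-test. With 1 array left out it was 273 to 736, the highest without SHR array 1, when 30.3% were higher in SHR against 48.2% of the 380. Unlike pairs (71) were 38 by the t-test and 38 with the stricter filter, and 39 to 66 with 1 array left out. The 7 interactions were 1 with the stricter filter, 4 with log2(value + 16), 4 by the t-test and 4 to 6 with 1 array left out. The median of the brightest group was -0.2 to -0.07 with 1 array left out. Lists with a median of -0.10 or below (22) were 6 after quantile normalisation and 15 to 32 with 1 array left out. Lists at 0.10 or above (4) were 2 with log2(value + 16), 2 without probe sets whose names mark shared targets, and 2 to 7 with 1 array left out. After quantile normalisation vasopressin reversed (0.06, adjusted p = 0.69), as did oxytocin (0.03) and Agt (0.13), none of them called. The cause of these moves was not tested. Arrays of one number did not pair (correlations of deviations -0.258, -0.00526, -0.185, 0.00458 and 0.0964), and with the replicate block the counts were 333, 105 and 40 unlike pairs. Of 116 called probe sets of named genes, 35 were called under every alternative that tested them. Calls were lost for 4 after quantile normalisation, 17 under the block, 54 without a filter, 78 by the t-test and 33 when 1 array was left out, each with the same direction. Not every such loss is given beside its gene. The number of arrays and the floor limit what dim probe sets can show.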

Other observations

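Other lists had few or no calls. Of 44 proteasome subunits 6 were above 0 and Psmb8 was the called one, with a median of -0.10, or 0.00 after quantile normalisation. Of 53 sorting nexins and Vps proteins, 21 cytosolic chaperones and 32 cholesterol and fatty acid synthesis genes limma called 0 on the brightest probe set, with 2, 4 and 5 at an unadjusted p under 0.05 and medians of -0.02, -0.11 and -0.07. The methods' t-test called 1 sorting nexin or Vps gene and none of the others. On another probe set limma called Snx10 and Snx27, described above, Vps52, of the GARP tethering complex, which stood at 0.42 and rose by 0.86 (0.0158), and Elovl6, which elongates fatty acids, which stood at 0.01 and rose by 0.66 (0.0275, lost without any of 6 arrays). Catecholamine genes (11 tested, median 0.04), nitric oxide genes (12, -0.07), insulin-like growth factor genes (10, -0.14) and peptide and amine receptors (24, -0.03) had no call on the brightest probe set by limma or the t-test, with 1, 2, 2 and 1 at an unadjusted p under 0.05. Igfbp5, a binding protein of insulin-like growth factors, stood at 0.04 and fell by 0.58 (0.0344) on another probe set, lost without any of 6 arrays (at most 0.105). Mural cell markers (7, median 0.11), tanycyte markers (6, -0.01), choroid plexus markers (4, -0.01) and markers of the neighbouring thalamus and suprachiasmatic nucleus (10, 0.05) had none either, with 1, 0, 0 and 1. Genes of GABA and glutamate neurones (7, median -0.11), aquaporins (4, -0.03) and haemoglobin and red cell genes (3, -0.06) had no call by either test, with 1, 0 and 1 at an unadjusted p under 0.05. Cytoskeletal control genes (14, median -0.23, or -0.03 after quantile normalisation) had 7 lower at an unadjusted p under 0.05 and no call by limma or the t-test.

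Several called genes of basic cell functions lay outside the comparisons above. Eif3c, a subunit of the translation initiation factor eIF3, fell by 0.90 (limma adjusted p = 3.73e-04). Polr3k, a subunit of RNA polymerase III, fell by 0.52 (0.0152), whereas Polr2f, shared by the 3 nuclear polymerases, rose by 0.58 (0.0274) on its brighter probe set and stood at -0.07 on the other. Among mitochondrial genes, Pam16, of the import motor, fell by 0.65 (0.028) and Sdhaf4, an assembly factor of succinate dehydrogenase, rose by 0.51 (0.0368). Acsl3, which activates fatty acids, fell by 0.64 (0.0229), and Txndc5, a disulphide isomerase of the endoplasmic reticulum, rose by 0.54 (0.0339). In Pam16 the strains overlapped, with SHR between 8.52 and 9.44 and WKY between 9.36 and 9.75. With 1 array left out the adjusted p reached 0.0846 for Pam16, 0.0858 for Polr2f, 0.103 for Sdhaf4, 0.0632 for Acsl3 and 0.101 for Txndc5.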
